A study of Bos taurus with 21 samples.

Results

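The genes described here encode subunits of the mitochondrial respiratory chain and the ATP synthase, measured by RNA-seq in somatic cells from the milk of 21 Holstein cows. They were taken by symbol, as every gene row of the count tables starting with NDUF, UQCR, ATP5 or COX4 to COX8, together with SDHA, SDHB, SDHC, SDHD and CYC1. The rule found 89 of the 13570 gene rows, and all 89 had at least 1 read and were tested among 12333 genes. By symbol, 38 belonged to complex I, 4 to complex II, 9 to complex III, 16 to complex IV and 15 to complex V, which gives 82 subunits. The other members were 5 assembly factors of complex I (NDUFAF1, NDUFAF2, NDUFAF3, NDUFAF4 and NDUFAF6) and 2 relatives, NDUFA4L2 and ATP5S. NDUFA4 was kept with complex I by its symbol, although its protein is now counted with complex IV. Since the symbols select nuclear genes, the subunits encoded by mitochondrial DNA were not analysed here.

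The cows fell into a high-yielding group, HY (9 cows), and a low-yielding group, LY (12 cows), and no treatment was given to either. The milk yield value of HY cows lay between 181 and 468 and that of LY cows between -404 and 86.9, on the scale of a genetic index for which no unit is given. Milk was taken once from each cow, at parity 2 to 4 and 41 to 270 days into lactation, so each cow is 1 library and time was compared between cows, not within them. The reads counted on genes ranged from 7878557 to 28541904 per cow. The markers of several cell types were counted, since all 16 epithelial, all 10 T cell and all 9 macrophage markers found in the tables had a read in every cow, as did 8 of 9 neutrophil markers, with CXCR1 at 0 in every cow. Only 1 of the 4 B cell markers was counted in every cow. In such bulk samples, fewer cells of a type and less RNA per cell cannot be told apart.

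Complexes I to IV pass electrons from NADH and succinate to oxygen, and complexes I, III and IV pump protons across the inner mitochondrial membrane. Complex V, the ATP synthase, uses the returning protons to make ATP. Complex I takes electrons from NADH, complex II from succinate, complex III hands them from ubiquinol to cytochrome c, and complex IV transfers them to oxygen. Mammary epithelial cells in lactation are rich in mitochondria and spend much ATP on making milk, whereas milk also carries neutrophils, macrophages and lymphocytes, whose use of respiration differs by type and state.

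The expression of most respiratory chain subunits was lower in cows sampled later in lactation. In the edgeR quasi-likelihood test with parity and milk yield value in the model, 56 of the 89 members had a negative slope on lactation period at an unadjusted p under 0.05, the threshold the study applied, and 0 had a positive one. Over all genes tested, 11.4% had such a negative slope and 9.75% a positive one. The median slope of the members was -0.41 on the log2 scale per 100 days, beside 0.05 over all genes, and 82 of the 89 slopes were negative. After Benjamini-Hochberg adjustment over all 12333 genes in edgeR, 0 members were under a false discovery rate (FDR) of 0.05 (background 0.0162%), and the lowest adjusted p of a member was 0.0843. At the FDR of 0.1 used in the study, edgeR gave 21 members, all with a negative slope, against 3.34% of all genes in either direction and 2.35% with a negative slope. Among these 21 were 14 subunits of complex I, 1 of complex III, 1 of complex IV and 5 of complex V. DESeq2 gave 56 members at an unadjusted p under 0.05, beside 11.2% of all genes with such a p and a negative slope. It gave 28 members under an FDR of 0.05 (background 7.8%). A linear regression on log2(CPM + 0.25) gave 56 and 0, for which the share of all genes is not given here. In the text below, a member is called lower where its edgeR slope was negative with an unadjusted p under 0.05, and no such call passed the FDR of 0.05 in edgeR.

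**Figure D1:**
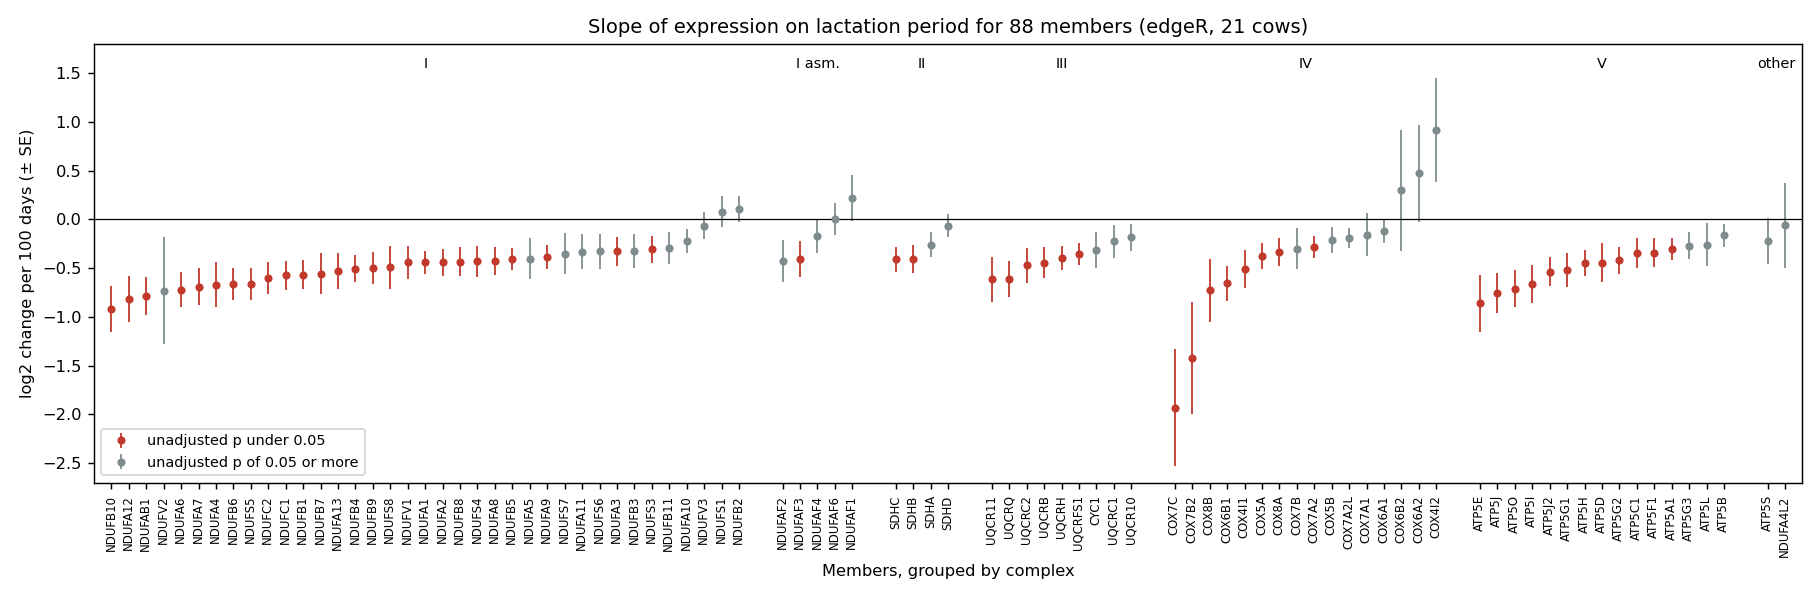
Slope of the expression of 88 of the 89 members on lactation period, in log2 units per 100 days with its standard error, from edgeR over 21 cows, ordered within each complex. Red points have an unadjusted p under 0.05; all 55 of them lie below 0, and the 7 members above 0 are grey.

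The scale of the counts mattered for the number of calls. CPM here are counts per 1000000 counted reads, scaled by the trimmed mean of M values (TMM), and the TMM factors of HY cows 3262 and 3280 were 0.46 and 0.50, the lowest of all cows. With total counts in place of TMM factors, 12 members were called lower and 0 higher (background 2.21%), the median slope of all genes moved up to 0.215 and that of the members to -0.14. Relative to the median of all genes the members lay at -0.35 under total counts and at -0.46 under TMM. Without cows 3262 and 3280, 23 members were called lower (background 4.25%), with a median of -0.26. Without LY cow 2893, sampled at day 59, the number was 34 (background 5.88%), and it ranged up to 61 when LY cow 3161 was left out. Of the 56 members called lower, 33 were called in each of the 21 fits that left out 1 cow. The shares of all genes for the 61 and the 33 are not given here, so both counts describe the members alone.

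Summed over its subunits, each complex had a lower median in the late cows than in the early ones, in TMM-scaled CPM and also as a share of all counted reads. The stages were set by day of lactation, with 5 early cows before day 80, 6 cows from day 101 to 176, 4 from day 200 to 224 and 6 late cows from day 239. The summed CPM of all 82 subunits lay between 7138 and 13362 in the early cows, with a median of 8244, and between 4659 and 8773 in the late cows, with a median of 5504. It was 4856 to 14516 in the cows of days 101 to 176 and 5516 to 7334 in those of days 200 to 224. In this scale the early and late ranges overlapped only through late HY cow 3057, whose sum of 8773 was above that of 3 early cows, and late LY cow 7598, whose sum of 7328 was above that of LY cow 3407. As a share of counted reads, without TMM factors, the 82 subunits took 0.6148% (cow 3262) to 0.9843% (cow 2814) in the early cows, with a median of 0.8502%, and 0.453% to 1.069% in the late cows, with a median of 0.6206%. On that scale cow 3262 was the lowest early cow and lay below late cows 7628 (0.7017%), 3272 (0.6325%) and 3057 (1.069%). With the late stage compared with the early one in edgeR, in place of days, 35 members were called lower (background 5.95%).

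By complex, the summed CPM of complex I was 1996 in HY cow 2814, 1874 in LY cow 3407, 3086 in LY cow 2893, 4038 in HY cow 3262 and 2161 in LY cow 3369, the early cows. In the late cows it was 1124 at the lowest, 1327 at the median and 2084 at the highest. Complex II, the smallest complex, had sums of 677, 496, 749, 769 and 569 in the same early cows, and 375, 417 and 685 at the lowest, median and highest of the late cows. In TMM-scaled CPM its early and late ranges overlapped because of cow 3057 alone, and by share of counted reads early cow 3262 (0.0354%) also lay inside the late range. For complex III the early sums were 781, 748, 1067, 1264 and 829, and the late ones 446, 536 and 892. Complex IV gave 1470.5, 1103, 1933, 2432 and 1297 in the early cows, with 692, 904 and 1432 in the late cows. For complex V, the early sums were 3319.5, 2917, 4409.8, 4859 and 3381.8, and the late sums were 2021, 2366 and 3681. In TMM-scaled CPM the early cow with the highest sum was 3262 in each complex, whereas by share of counted reads it was the early cow with the lowest sum in each, as in complex I with 0.1858% against a highest early share of 0.2383%. The late cow with the highest sum was 3057 in each complex on both scales.

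**Figure D2:**
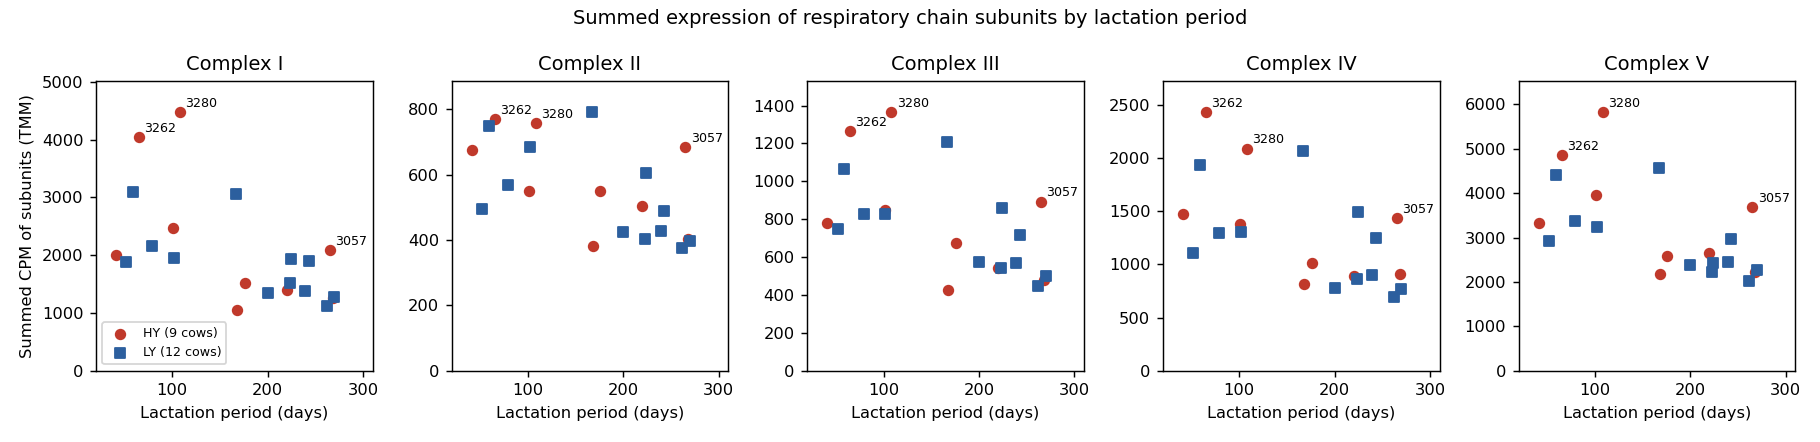
Summed CPM of the subunits of each complex (vertical axis, TMM-scaled) against lactation period in days, 1 point per cow, with 9 HY cows as circles and 12 LY cows as squares. In this scaling most cows after day 200 lie below most cows before day 110, while HY cow 3057 at day 265 stands above the other late cows; in complex I its sum is 2084, against a late median of 1327.

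Complex I held the members with the lowest p. Of its 38 members, 27 were called lower, 0 were called higher and 11 did not pass. Among the 7 core subunits, which carry the flavin and the iron-sulfur clusters, 4 were called lower, and of the 31 accessory subunits 23 were.

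NDUFS5, an accessory subunit, was at 96.4, 90.3, 211, 247 and 122 CPM in early cows 2814, 3407, 2893, 3262 and 3369, and at 45.1, 68.4 and 95.0 CPM at the lowest, median and highest of the late cows, with cow 3057 as the highest. Its slope was -0.66 ± 0.17 (SE) per 100 days (edgeR unadjusted p = 0.000594, adjusted p = 0.0843), and its late mean was 0.460 of its early mean. NDUFAB1, the mitochondrial acyl carrier protein that is also a subunit of complex I, was called lower at -0.78 ± 0.20. NDUFB10, a subunit of the membrane arm, had the steepest slope in complex I, -0.92 ± 0.24, and its late mean was 0.329 of its early mean. Without cow 2893 the slope of NDUFB10 was -0.61 and still passed (edgeR unadjusted p = 0.01711). In both genes early cow 2893 was the highest of the early cows, with 94.5 CPM for NDUFAB1 and 209 for NDUFB10.

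The 11 members of complex I that did not pass were not confined to weakly counted genes. NDUFS1, the largest core subunit, had a slope of 0.08 ± 0.16 (edgeR unadjusted p = 0.623), with 37.6 to 87.3 CPM in the early cows and 58.2 to 103.7 in the late cows. NDUFB2, of the membrane arm, had a slope of 0.11 ± 0.13. NDUFV2, a core subunit that carries an iron-sulfur cluster, had only 0 to 10 reads per cow and no read in 8 cows, and its slope of -0.73 ± 0.55 did not pass. NDUFA4 was called lower at -0.67 ± 0.23, with 107, 139, 327, 407 and 214 CPM in the early cows and 88.6, 125 and 213 in the late cows. Its late maximum was in LY cow 7598 and lay above 2 early cows, so its ranges overlapped widely. Without LY cow 2893 the slope of NDUFA4 was -0.49 and did not pass.

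The assembly factors of complex I, which help to build the complex and are absent from the finished enzyme, numbered 5. Of these NDUFAF3 was called lower at -0.41 ± 0.19, and the others did not pass. The difference from the subunits of complex I was not tested. The call of NDUFAF3 was lost without any of 9 cows (2864, 2893, 3014, 3135, 3262, 3264, 3272, 3280 and 7628), at slopes of -0.42 to -0.29. NDUFAF3 was at 14.7, 11.96, 16.8, 35.0 and 9.11 CPM in the early cows and at 7.26, 8.09 and 12.7 CPM in the late cows. NDUFAF2 had a slope of -0.42 ± 0.22, while NDUFAF1 (0.22 ± 0.23) and NDUFAF6 (0.0025 ± 0.16) had slopes above 0.

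In complex II, the succinate dehydrogenase that also works in the citric acid cycle, 2 of 4 members were called lower. SDHC, a membrane anchor of the complex, was at 78.3, 44.6, 78.4, 58.8 and 47.3 CPM in the early cows and at 24.1, 38.1 and 54.9 in the late cows. In TMM-scaled CPM, without cow 3057, every early cow was above every late one, which by share of counted reads was not so. Its slope was -0.41 ± 0.13 (edgeR unadjusted p = 0.00398, adjusted p = 0.1012). SDHB, the iron-sulfur subunit, had a slope of -0.41 ± 0.14, and lost its call without LY cow 2893, with -0.28 (p = 0.0557). SDHA, the flavoprotein, had -0.26 ± 0.13 and SDHD, the other membrane anchor, -0.06 ± 0.12. SDHD was at 95.8 to 155 CPM in the early cows and 92.4 to 135 in the late cows.

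All 9 slopes of complex III were negative, and 6 of these members were called lower. UQCRQ, a small subunit, had 28.02, 29.9, 34.6, 68.1 and 23.5 CPM in the early cows and 10.5, 12.8 and 36.1 CPM in the late cows. The 36.1 CPM of cow 3057 lay above 4 of the 5 early cows. The slope of UQCRQ was -0.61 ± 0.19 (edgeR unadjusted p = 0.00329, adjusted p = 0.09952). UQCRH, the hinge protein next to cytochrome c1, had -0.40 ± 0.12, UQCRB -0.44 ± 0.16 and UQCRC2, a core protein, -0.47 ± 0.18. Without cow 2893 the slopes of UQCRB (-0.34) and UQCRC2 (-0.30) did not pass, nor did that of UQCRC2 without cow 3280 (-0.32). CYC1, the cytochrome c1 that passes electrons on to cytochrome c, had -0.31 ± 0.18 and did not pass, with 63.7 to 149 CPM in the early cows and 37.5 to 107 in the late cows.

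Complex IV holds pairs of isoforms of which 1 is widespread and the other restricted to tissues such as muscle, lung or testis. Of 10 other subunits 6 were called lower, and of the 6 tissue isoforms 2 were. COX6B1, on the outer side of the complex, was at 292 CPM in cow 2814, 209 in cow 3407, 579 in cow 2893, 771 in cow 3262 and 288 in cow 3369, and at 125, 190.5 and 296 CPM at the lowest, median and highest of the late cows. The late cow with the highest value was LY cow 7598, above 3 of the 5 early cows. The slope of COX6B1 was -0.66 ± 0.18 (edgeR unadjusted p = 0.00145, adjusted p = 0.0859). Among the widespread isoforms, COX4I1, the largest of the nuclear-encoded subunits, was called lower at -0.51 ± 0.20, COX7A2 at -0.28 ± 0.11 and COX8A at -0.33 ± 0.14. COX6A1 had -0.12 ± 0.13, COX7A2L, which takes part in joining complexes into supercomplexes, -0.19 ± 0.10, and COX7B -0.30 ± 0.21, and none of these passed. The calls of COX4I1 and COX8A were lost without cow 2893, at -0.32 and -0.24, and without cow 3262, at -0.43 and -0.30. That of COX8A was lost also without cow 2864 or 3272, and that of COX7A2 without cow 3075, 3369 or 7643, at slopes of -0.24 to -0.22.

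The tissue isoforms had few reads, with the exception of COX7A1. COX7A1, the muscle isoform, was at 24.4, 16.2, 15.8, 39.8 and 12.8 CPM in the early cows and at 9.58, 13.3 and 34.3 in the late cows, and its slope was -0.16 ± 0.22. COX4I2, known from lung, had 0 to 21 reads per cow and was at 0 in 6 cows, with a slope of 0.92 ± 0.53. It had an unadjusted p under 0.05 in 2 of the 21 fits that left out 1 cow. Without cow 2864 its slope was 1.17 (edgeR unadjusted p = 0.0291). COX6A2, from heart and muscle, had 0 to 10 reads and was at 0 in 6 cows (slope 0.47 ± 0.50). COX6B2, from testis, was at 0 in 14 cows and had 27 reads in cow 2893 (slope 0.30 ± 0.62). COX7B2 was called lower (-1.42 ± 0.58) on 0 to 34 reads, with no read in 9 cows, and COX8B (-0.73 ± 0.32) on 0 to 38 reads. Without cow 3262 the slope of COX7B2 was -0.64, and it did not pass, nor did it without cow 2893, and without cow 7628 it was -2.17. COX8B lost its call without cow 2893, 3075, 3264 or 3280. At these depths the slopes rest on single reads in many cows.

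COX7C, a small subunit of complex IV, had the steepest slope of any member, -1.93 ± 0.60 per 100 days (edgeR unadjusted p = 0.00384, adjusted p = 0.101). Its counts ran from 0 to 812 reads between cows. In the early cows 2814, 3407, 2893, 3262 and 3369 it had 483, 812, 651, 38 and 138 reads, and in the late cows 7628, 7598, 3272, 3057, 3014 and 2864 it had 304, 0, 133, 2, 43 and 2. LY cows 3198 and 3161, sampled at days 102 and 167, had 1 and 7 reads. Among LY cows alone its slope was -0.21 ± 1.92. Reads that aligned to several places, 21.6% to 27.5% of the reads per cow, were not counted. How many of them belonged to any of the members was not analysed here, so the counts of a gene with near-identical copies in the genome would be uncertain.

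**Figure D3:**
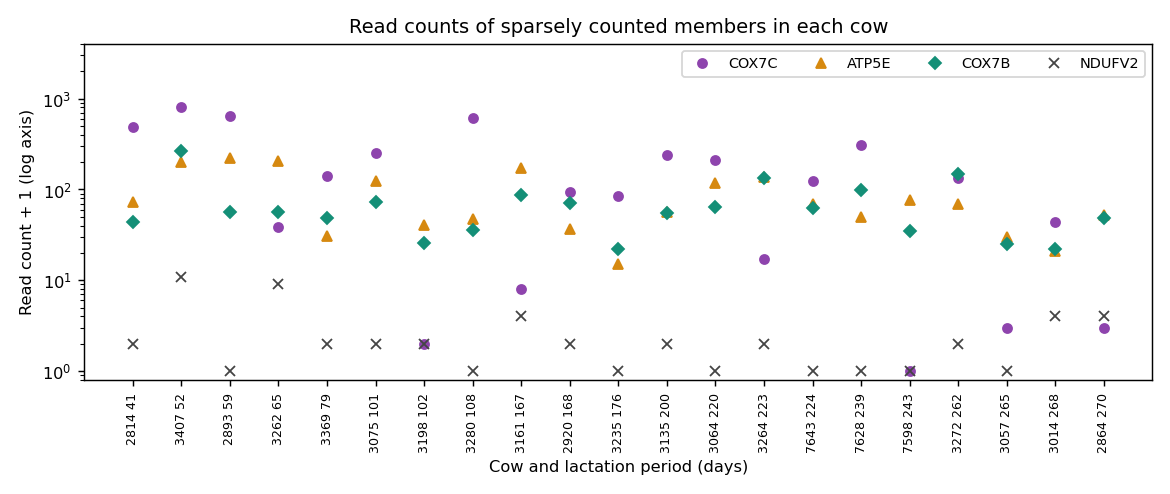
Reads counted on COX7C, ATP5E, COX7B and NDUFV2 in each cow, as count + 1 on a log axis, with the cows in order of lactation period. COX7C runs from 0 to 812 reads with 5 cows at 7 reads or fewer, while NDUFV2 has at most 10 reads.

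In complex V all 15 slopes were negative and 12 members were called lower. Of the 5 subunits of the catalytic F1 part 4 were called lower, as were 2 of the 3 genes for the rotating c ring and 6 of 7 of the stalk and membrane subunits. ATP5O, the protein that confers oligomycin sensitivity, was at 114, 194, 485.5, 234 and 216 CPM in the early cows and at 78.6, 127 and 157 CPM in the late cows. Early HY cow 2814 lay inside the late range and the other early cows above it. Its slope was -0.71 ± 0.19 (edgeR unadjusted p = 0.000997, adjusted p = 0.0843). ATP5J, the coupling factor 6 of the stalk, had 85.1, 178, 400.1, 283 and 222 CPM early and 66.2, 111 and 129.7 CPM late, with the same cow inside the late range, and a slope of -0.75 ± 0.21.

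ATP5B, the catalytic beta subunit, did not pass, with -0.16 ± 0.12. It was at 922, 489, 626, 776 and 637 CPM in the early cows and at 497, 528 and 954 in the late cows, and cow 3057 had the highest value of both stages. The 3 genes ATP5G1, ATP5G2 and ATP5G3 encode the same mature c subunit behind different import sequences. ATP5G1 (-0.52 ± 0.18) and ATP5G2 (-0.42 ± 0.14) were called lower, while ATP5G3 (-0.27 ± 0.14) did not pass. ATP5L, of the membrane part, had 5 to 75 reads per cow and a slope of -0.26 ± 0.22. ATP5S, a factor related to complex V by name, had -0.22 ± 0.24, and NDUFA4L2, a relative of NDUFA4 known to be induced by low oxygen, had -0.06 ± 0.43.

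The early and late cows did not overlap for 6 members, with every early cow above every late cow in NDUFB1, NDUFB5, NDUFB6, NDUFC1 and NDUFC2, all accessory subunits of complex I, and in ATP5J2, a membrane subunit of complex V. Over all genes this held for 0.697%. The reverse order held for 0 members and for 0.73% of all genes. NDUFB6 was at 42.5, 48.1, 69.9, 100.5 and 51.7 CPM in the early cows and at 22.5, 29.7 and 39.9 CPM in the late cows, and NDUFC1 was at 27.6 to 58.0 CPM in the early and 15.5 to 24.5 in the late cows. Of ATP5J2, the lowest early and the highest late value were both 108 CPM to the digits given. Without cow 3057, 20 members were in this order, against 2.77% of all genes. By share of counted reads, without TMM factors, 0 members were in this order with all late cows (0.235% of all genes), and 21 without cow 3057 (2.04% of all genes).

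Within a cow, the members tended to be high or low together. Set against its own median over the 21 cows, between 51 and 80 of the 89 members were above it in the early cows, 4 to 81 in the cows of days 101 to 176, 14 to 41 in those of days 200 to 224 and 8 to 69 in the late cows. Over all genes tested, the share above the median was 36.6% to 55.8% per cow. LY cow 3161 (day 167) had 81 members above the median and HY cow 2920, sampled 1 day later, had 4. Among the late cows, cow 3057 had 69 and the other late cows 8 to 44. By share of counted reads cow 3161 had 81 members above the median and cow 2920 had 9, while cow 3262 had 35, against 80 in TMM-scaled CPM, and cow 3280 had 36, against 78. The part of all genes above their median by share of counted reads was not computed, so these counts describe the members alone.

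**Figure D4:**
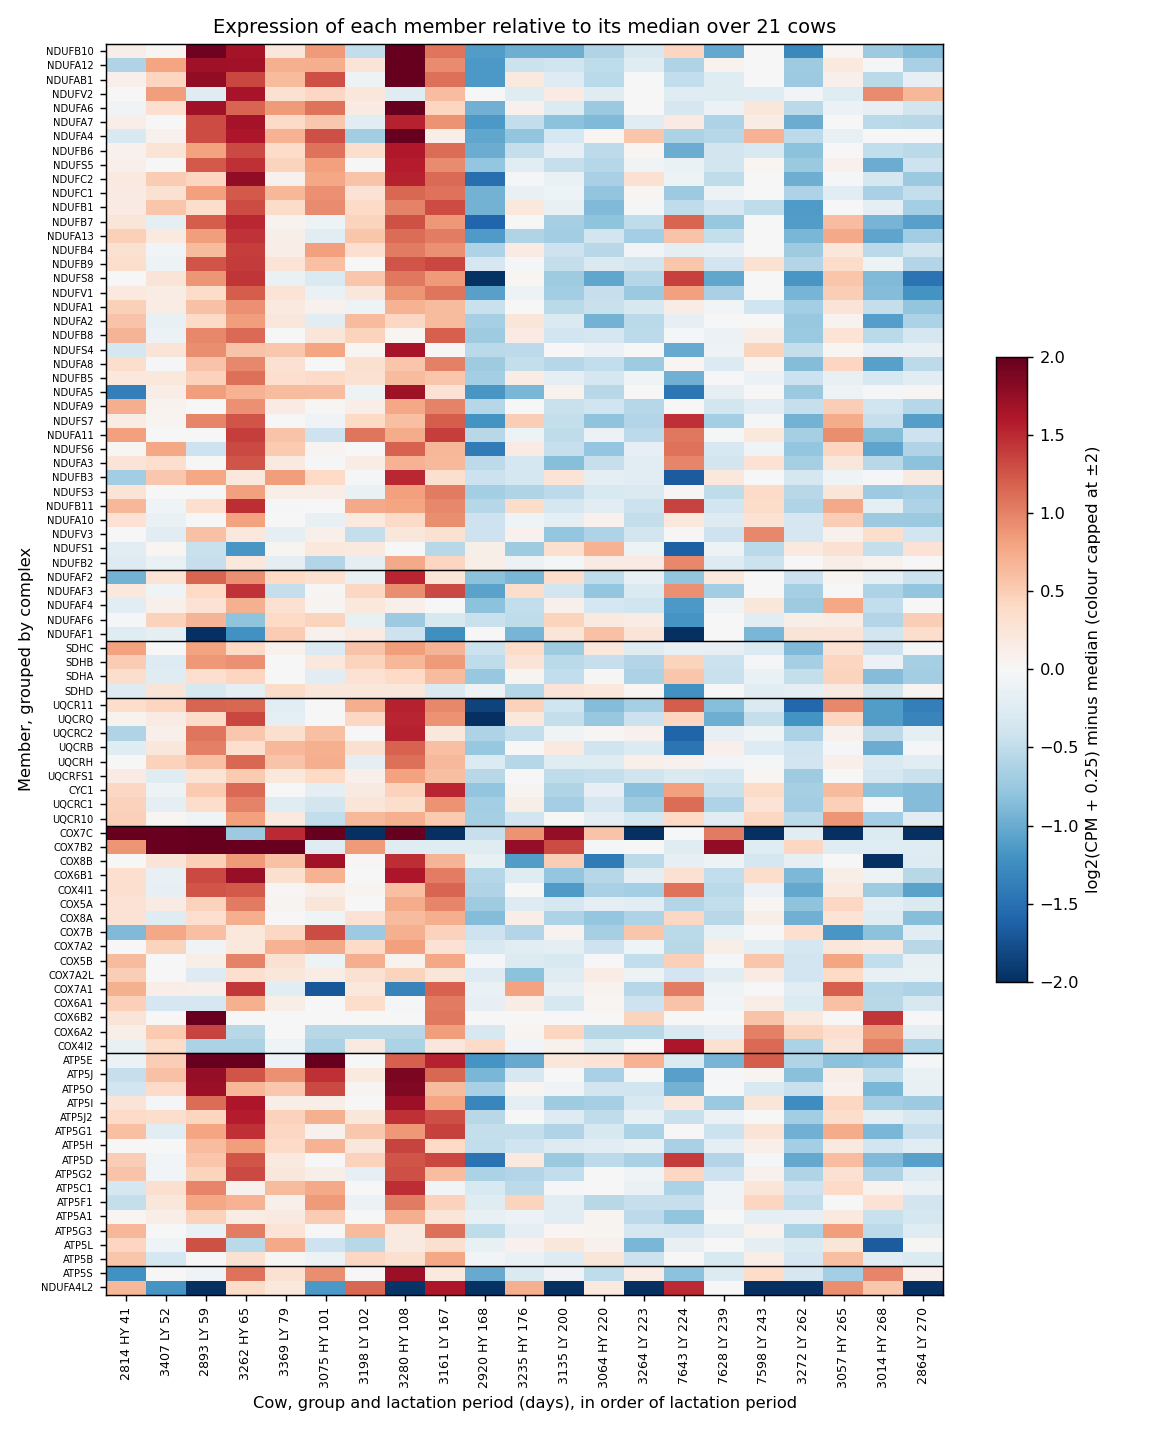
Expression of 88 of the 89 members (rows, grouped by complex) in each of the 21 cows (columns, in order of lactation period), as log2(CPM + 0.25) minus the member's median, with colour limits at ±2. In this scaling cows 3262, 3280 and 3161 are red in most rows, with 80, 78 and 81 of all 89 members above their median, and cow 2920 is blue in most rows, with 4 above.

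Some marker genes of other cell types had slopes on lactation period at an unadjusted p under 0.05, where 11.4% of all genes had a negative and 9.75% a positive one. No marker was under an FDR of 0.1 in edgeR. Of the 16 epithelial markers 15 had negative slopes, 4 at an unadjusted p under 0.05, with a median of -0.99. The milk protein genes LALBA (-1.75 ± 0.74) and PAEP (-1.52 ± 0.68) had the lowest p. These 16 genes took 0.252% to 60.9% of the counts in the early cows, 0.228% to 57.3% at days 101 to 176, 0.337% to 34.7% at days 200 to 224 and 0.5678% to 31.3% in the late cows. Of the 8 neutrophil markers tested 3 had a positive slope at an unadjusted p under 0.05, with a median of 0.50, and their summed CPM was 3382 to 9023 in the early and 4065 to 14744 in the late cows. All 10 T cell markers had positive slopes, 1 of them (CD3G, 0.83 ± 0.38) at an unadjusted p under 0.05, and their sum was 173 to 715 CPM in the early, 429.5 to 1595 at days 200 to 224 and 262 to 698 in the late cows. None of the 9 macrophage and 4 B cell markers passed in edgeR. The part of these cell types in the slopes of the respiratory chain was not tested.

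Single cows showed both orders, and the cows named first here were picked as examples. HY cow 2814 had an epithelial share of 0.252% and 61 members above their median, whereas LY cow 3264 had 34.7% and 14. HY cow 3262, with 60.9%, had 80 (35 by share of counted reads), and LY cow 3161, with 2.82%, had 81. In TMM-scaled CPM, the other cows at 30.07% or more were 2864 (9 members), 7598 (44), 2893 (72), 3369 (69), 3075 (57) and 3280 (78). The other cows at 3.609% or less were 3235 (32 members), 7643 (41), 3057 (69), 3198 (58), 3272 (8) and 2920 (4). Cows between these shares had 8 to 51 members above their median. With the 16 epithelial genes left out of the totals and the TMM factors, 56 members were called lower, as with them. This setting changed only the scaling, with a median member slope of -0.40 in place of -0.41. It left the cell content of the samples as it was, so it cannot show the part of epithelial cells, which was not tested.

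**Figure D5:**
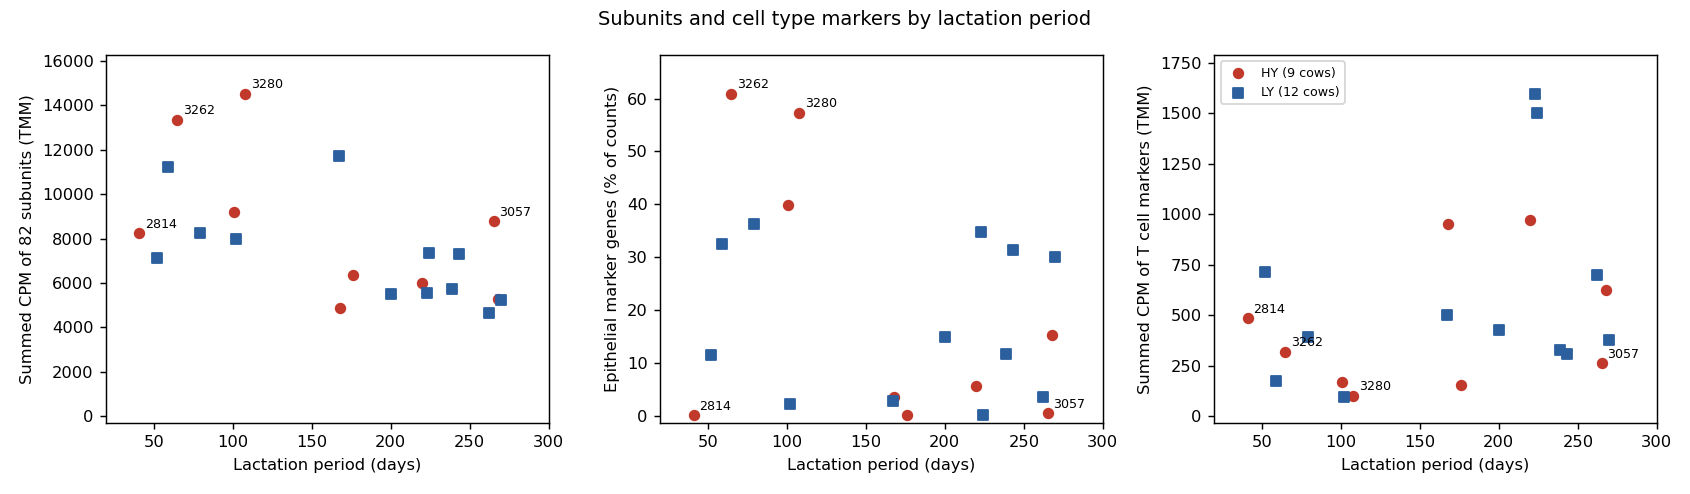
Summed CPM of the 82 subunits, share of counts on the 16 epithelial marker genes in percent and summed CPM of the 10 T cell markers, each against lactation period in days, with 1 point per cow, HY as circles and LY as squares. Cows 3262 and 3280 are the highest of all cows in the second panel, with 60.9% and 57.3%, and in the first, with TMM factors of 0.46 and 0.50, while their subunits took 0.6148% and 0.7233% of the counted reads, whereas cow 2814 has an epithelial share of 0.252%.

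The slopes were also computed within each yield group, because lactation period and milk yield value were linked among the LY cows. The 3 LY cows before day 80 had milk yield values between -404 and -364, below those of the other LY cows, which were -211 to 86.9. Within HY, 81 of the 89 slopes were negative, with a median of -0.46, and 3 members were called lower (background 1.88%) and 1 higher (background 6.15%). Among those lower were NDUFS5 and ATP5G2, and the 1 higher was COX6B2. Within LY, 82 slopes were negative, with a median of -0.60, and 27 members were called lower (background 3.19%). These fits held parity and the milk yield value. A separate edgeR model, with parity and group but without the milk yield value, tested the difference between the slopes as an interaction. It passed for 0 of 89 members at an unadjusted p under 0.05 (background 2.5%) and for 0 after adjustment. DESeq2 and the linear regression gave 0 as well. The median interaction, HY minus LY, was -0.04, so it is not the difference between the slopes of the separate fits. The lowest p belonged to COX6B2 and COX6A2, both with few reads (unadjusted p = 0.09983 and 0.1737). Of the others, ATP5G2 had an interaction of -0.36 ± 0.29, beside slopes of -0.76 in HY and -0.29 in LY in the separate fits.

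Since 5 cows had a mapping rate above 85%, the slopes were also fitted in the other 16 cows. There 50 members were called lower, and 50 were when the mapping rate set was a term in the model of all cows. The shares of all genes called in these fits are not given here, so these counts describe the members alone.

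Few members passed for parity, and only at an unadjusted p. There were 14 cows of parity 2, 4 of parity 3 and 3 of parity 4, of which the last were sampled at days 59, 168 and 270. In edgeR, 6 members had a negative slope on parity at an unadjusted p under 0.05 (background 3.08%) and 1 a positive one (background 2.11%), 7 in all (background 5.19%). After adjustment 0 passed in edgeR and in DESeq2, which gave 7 at an unadjusted p under 0.05. NDUFS6, an accessory subunit of complex I that binds zinc, had the lowest p, with -0.60 ± 0.21 per parity (unadjusted p = 0.00898, adjusted p = 0.9015). It was at 4.81, 10.5 and 21.4 CPM at the lowest, median and highest of the parity 2 cows. At parity 3 it was at 3.91, 7.33 and 8.62 CPM, and the cows of parity 4 had 6.30 (cow 2893), 3.04 (cow 2920) and 5.44 CPM (cow 2864). The ranges of parity 2 and later parities overlapped.

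The other members with a negative slope on parity were UQCRQ (-0.56 ± 0.21), NDUFA4L2 (-1.32 ± 0.59), NDUFC2 (-0.41 ± 0.19), ATP5D (-0.49 ± 0.23), a subunit of the central stalk of complex V, and NDUFV1, which binds NADH. The positive one was COX6B2, with 1.98 ± 0.72, which was at 0 in 14 cows. Without HY cow 2920, the number of members that passed was 1, and without LY cow 2893 it was 11. The shares of all genes that passed in these fits are not given here, so the counts describe the members alone. The calls of NDUFS6 (-0.48 without it) and UQCRQ (-0.36) were lost without cow 2920, and that of COX6B2 without cow 2893 (0.14) or 3014 (1.26). The calls of ATP5D, NDUFA4L2 and NDUFC2 were lost without any of 9, 6 and 6 cows, with slopes of -0.49 to -0.33, -1.24 to -0.99 and -0.39 to -0.23. Of the neutrophil markers all 8 had positive slopes on parity, 2 of them at an unadjusted p under 0.05, and of the macrophage markers 7 of 9 were negative with 1 passing. The part of these cells in the slopes on parity was not tested.

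No member passed for milk yield. With lactation period and parity in the model, edgeR gave 0 of 89 members at an unadjusted p under 0.05, against 3.76% of all genes, and 0 after adjustment, and DESeq2 and the linear regression also gave 0 of each. The median slope of the members was 0.07 per standard deviation of the milk yield value (263.7 on its scale), beside 0.02 over all genes. ATP5B had a slope of 0.15 ± 0.10 (edgeR unadjusted p = 0.1389). ATP5B was at 537, 741 and 954 CPM at the lowest, median and highest of the HY cows and at 466, 574.5 and 1068 CPM of the LY cows. The HY and LY ranges overlapped over most of their length. The summed CPM of the 82 subunits had a median of 8244 among the HY cows (range 4856 to 14516) and of 7233 among the LY cows (range 4659 to 11698).

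Nearly none passed for the values of fat, protein and solids. For milk fat, 1 of 89 members passed at an unadjusted p under 0.05 (background 2.98%), COX6A2 with -0.98 ± 0.40 per standard deviation (edgeR unadjusted p = 0.0238), on 0 to 10 reads per cow. Without cow 2920 its slope was -0.88 and did not pass. For milk protein and milk solids edgeR gave 0 members (backgrounds 3.36% and 3.32%), as did DESeq2 and the linear regression, and 0 passed after adjustment for each of the 3 traits in each of these tests. For protein NDUFAF6 had -0.21 ± 0.13, and for solids ATP5A1, the alpha subunit of complex V, had 0.14 ± 0.10. The median slope was 0.02 for fat, 0.08 for protein and 0.06 for solids, beside 0.02, 0.01 and -0.01 over all genes.

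Other genes of the organelle were compared in the same edgeR fit on lactation period, in which 11.4% of all genes were called lower and 9.75% higher. Of 74 mitochondrial ribosomal proteins, which translate the subunits encoded in mitochondrial DNA, 40 were called lower and 0 higher, with a median slope of -0.37, and MRPL27 (-0.82 ± 0.20) and MRPS33 (-0.72 ± 0.18) had the lowest p. Of 27 assembly factors of the complexes and cytochrome c, 8 were called lower and 0 higher, with a median of -0.18, led by COX16 (-0.51 ± 0.15) and COX14 (-0.49 ± 0.15), which assist complex IV. Of 18 genes of the citric acid cycle and pyruvate dehydrogenase 6 were called lower and 0 higher, with a median of -0.11, led by IDH3B (-0.42 ± 0.12) and SUCLG2 (-0.38 ± 0.13). Of 10 carriers and pores 3 were called lower, among them SLC25A4 (-0.67 ± 0.24), which exchanges ADP for ATP, and ATPIF1 (-0.33 ± 0.13), which inhibits the ATP synthase. Among 11 regulators of mitochondrial biogenesis 0 were called lower and TFB1M, which modifies mitochondrial ribosomal RNA, was called higher at 0.41 ± 0.16, a share of the list near that of all genes. TFAM, which packs mitochondrial DNA, had 0.44 ± 0.23 and did not pass.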

How the data were processed

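RNA-seq libraries of milk somatic cells from 21 Holstein cows were compared. Per the labels and the study's methods, total RNA was taken with TRIzol and sequenced on Illumina machines. The authors trimmed the reads with Trimmomatic, mapped them to bosTau7 with TopHat2 and Bowtie2 and counted them on genes with HTSeq, with SAMtools in between, and deposited raw counts per gene, without normalization. Versions are not given in the sources used here. Groups, parity, lactation period and trait values were taken from the labels. The row without a gene name (0.0232% to 0.0686% of the counts) and 5 summary rows were left out, 1237 of 13570 genes had no count, and 23 symbols had turned into dates.

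Counts were tested with edgeR 4.0.16 (R 4.3.3, TMM, glmQLFit, glmQLFTest) over all 12333 genes with a count. Slopes were log2 changes on lactation period (per 100 days), parity and milk yield value (per SD), with fat, protein or solids in place of yield. The interaction model held lactation period, group, their product and parity, without a trait value. Errors are SE, and p-values were adjusted by Benjamini-Hochberg over all genes. The alternatives were DESeq2 1.42.0, a linear regression on log2(CPM + 0.25), a filter of 10 counts in 9 cows, other scalings, subsets of cows and leaving out each cow, with levels also given as shares of counted reads (chosen after seeing the data). The scripts were tested on simulated data. Depth was 7878557 to 28541904 counts per cow; a chi-square test of the counts of each pair of cows gave at least 37.9 per degree of freedom, so no library was counted as a repeat. Members named with values were the isoform families, SDH subunits and CYC1, the 2 members per complex with the lowest p in a comparison, any past the FDR, and those with the highest and lowest mean CPM in a complex; of other lists, the 2 genes with the lowest p on lactation period. ATP5J2, NDUFAB1, NDUFB1, NDUFB2, NDUFB5, NDUFB6, NDUFB10, NDUFC1, NDUFS1 and NDUFV1 fell outside that rule and were named after their values were seen. Values of 1 member are not reported here. The members, gene lists and tests were chosen with earlier results of these data known. Each cow gave 1 sample. All 89 members matched a gene in RefSeq (ARS-UCD2.0), 73 by symbol and 16 by an older name, and no sequence or coordinate was used.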

Additional observations from a re-analysis of the deposited data

Results flagged for a closer look

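Each of 168 groups of values, namely the summed CPM of a complex or the CPM of a named member in the cows of 1 stage, was searched for a cow far from the others of its stage, by the gap to the nearest other cow divided by the range. Such a gap was found in 26 groups, 3 among the early cows, 6 at days 101 to 176, 9 at days 200 to 224 and 8 among the late cows. For normally distributed values chance alone gives about 1 in 20 groups, but whether these CPM are so distributed was not tested. Where all other cows of a stage are at 0 CPM, any read gives such a gap. This was so for COX6B2 in cows 3161 and 3264. Values of 1 cow are also not independent of each other, so the 26 groups cannot be set against that rate.

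Late HY cow 3057 stood above the other late cows 4 times. Its summed CPM of complex II was 685, with the others at 375 to 489.6, and it had 375 CPM of ATP5G3 (others 137 to 222), 34.3 of COX7A1 (others 9.58 to 14.8) and 36.1 of UQCRQ (others 10.5 to 19.1). LY cow 7643, at day 224, stood above the 3 other cows of its stage in the sums of complex III (859.5) and complex IV (1497), in COX4I1 (506 CPM), COX4I2 (0.943 CPM), COX8A (176 CPM) and SDHB (274 CPM), and below them in UQCRC2 (8.04 CPM, others 23.6 to 26.3). LY cow 3161, at day 167, was above the others of its stage in COX6A1 (110.4 CPM), COX6A2 (0.403 CPM), COX6B2 (0.269 CPM) and CYC1 (196 CPM), and HY cow 3280 in COX7C (120.4 CPM) and NDUFAF2 (12.6 CPM). Among the early cows LY cow 2893 was above the others in COX6B2 (3.09 CPM) and COX7C (74.5 CPM), and HY cow 3262 in UQCRQ (68.1 CPM, others 23.5 to 34.6). Of the other late cows, LY cow 7598 was highest in NDUFA4 (213 CPM), LY cow 7628 in COX7B2 (0.764 CPM) and HY cow 3014 in COX6B2 (0.423 CPM) and lowest in COX8B (0 CPM). At days 200 to 224, LY cow 3264 was highest in COX6B2 (0.0917 CPM) and LY cow 3135 in COX7B2 (0.480 CPM). The values of COX4I2, COX6A2, COX6B2 and COX7B2 rest on few reads. No member differed between HY and LY in its slope on lactation period after adjustment in edgeR, and 0 did at an unadjusted p under 0.05 in edgeR and in DESeq2.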

How the results depend on the processing

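For lactation period, the 56 members at an unadjusted p under 0.05 became 4 in only HY cows, 27 in only LY cows, 35 for the latest against the earliest of 4 stages, 12 with total counts without TMM factors and 23 without cows 3262 and 3280 (the last 2 settings, and those without epithelial genes or cow 3057, were chosen after seeing the data). Fewer cows entered 3 of these fits and for the others the cause was not tested. Under DESeq2, linear regression, the filter of 10 counts in 9 cows (84 members left), 16 cows, DESeq2 size factors, the mapping term, the single-term model, HY or LY in place of yield, no epithelial genes in the scaling and no cow 3057, it was 50 to 60. Leaving out each cow gave 34 to 61. The 0 members under an FDR of 0.05 became 28 with DESeq2, 21 at an FDR of 0.1 (chosen after seeing the data) and 0 to 21 when leaving out each cow (20 without cow 2814, 21 without cow 2920, otherwise 0). For parity, the 7 members became 4 by linear regression, 1 in 16 cows, 3 for parity 2 against later parities and 1 to 11 when leaving out each cow (3 or 4 without cow 2814, 3014, 3161, 3262, 3280 or 7643). For milk yield, 0 became 1 in the single-term model and 0 to 1 when leaving out each cow (1 without cow 3014, 3075 or 3161). For fat, 1 became 0 with the filter, in 16 cows and in the single-term model, and 0 to 2 when leaving out each cow (0 without cow 2920). For protein, 0 became 1 in the single-term model and 0 to 2 when leaving out each cow (above 0 without cow 2864, 2920 or 3057). For solids, 0 became 1 with the mapping term and in the single-term model, and 0 to 3 when leaving out each cow (above 0 without cow 2864, 2920, 3014, 3057 or 3264). The interaction ranged from 0 to 2 (above 0 without cow 2814, 2893, 3057 or 3407). For lactation period the slope of COX6B2 turned to -1.45 (p = 0.0349) in the single-term model, and no other named member was opposite in sign with a p under 0.05. No paired analysis was possible because each cow gave 1 sample. Members with under 10 reads in a cow, 9 of 89, are limited by depth. The share of all genes called is given above for only some of these settings, and the other counts describe the members alone.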
